A study of Mus musculus with 2 samples.

Results

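The lysosome and cathepsin genes were followed in CD45+ leukocytes of the mouse heart. They were 39 genes, chosen by symbol among the 27809 genes measured, from a list drawn up with earlier results of these data known. They code for 9 cathepsins, the related protease legumain (*Lgmn*) and the acid phosphatase *Acp5*, for membrane proteins of the lysosome (*Lamp1*, *Lamp2*, *Cd63*, *Cd68*, *Laptm5*, *Scarb2*, *Mcoln1*), for 7 parts of the proton pump (*Atp6* genes), for enzymes and lipid carriers of the lumen, and for the transcription factor *Tfeb*. Hearts came from male mice on a C57BL/6 background, aged 8 weeks, taken 1 week after surgery. WT mice and CD3e-/- mice, which lack mature T cells, had a sham operation or transverse aortic constriction (TAC), a narrowing of the aorta that loads the heart with pressure, and a further group of WT mice had TAC and an antibody to CD8. These 5 groups are WT sham, CD3e-/- sham, WT TAC, CD3e-/- TAC and the group labelled CD8-depleted TAC, and 5 values in a row follow this order. The cells of each group carried a hashtag and all were sequenced in 1 pooled TAS-Seq library, amplified from polyadenylated RNA caught on barcoded beads of the BD Rhapsody system. Each group was thus 1 sample without replicates, the number of mice behind a hashtag was not given in the sources used here, and groups were compared by their values without a test.

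Lysosomes are acid compartments in which cells break down what they take up and what they no longer need. The proton pump acidifies the lumen, cathepsins cut proteins there, glycosidases and lipid hydrolases break down sugars and fats, and membrane proteins such as LAMP1 seal the compartment. Tissue macrophages, which clear dead cells and debris, are rich in lysosomes. TFEB and its relatives bind a short palindrome near many genes of the lysosome and of autophagy, the E-box CACGTG within the longer CLEAR element.

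The promoters were searched for that palindrome on both strands, from 250 bases before to 50 bases after each start site in RefSeq (GRCm38.p6). Of the 39 genes 32 had a promoter there. CACGTG was found in 10 of the 32 (31.2%), and in 8.09% of the 27025 genes with a promoter. The extended form TCACGTGA, which contains the first, was found in 6 (18.8%) and in 1.12% of all genes. The 10 genes were *Ctsa*, *Ctsd*, *Ctsl*, *Lgmn*, *Lamp1*, *Mcoln1*, *Atp6v0d1*, *Atp6v1a*, *Gaa* and *Gla*. A match is a description of these letters and not of a bound site. The palindrome is known from lysosomal genes and the list was chosen as lysosomal, so the higher share is no independent result. The stretches below are those of *Ctsd*, *Ctsl* and *Lgmn*, the genes with the motif whose level was past the limit of 1.5-fold after TAC in both genotypes, and of *Atp6v1a* and *Lamp1*, a pump subunit and a membrane protein that were high in *Gpnmb*+ cells. Each has 30 bases on the strand of its gene, with the palindrome in capitals.
Ctsd, chr7:142387908-142387937, minus strand: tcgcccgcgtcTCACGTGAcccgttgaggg
Ctsl, chr13:64370739-64370768, minus strand: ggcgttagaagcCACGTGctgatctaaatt
Lgmn, chr12:102439124-102439153, minus strand: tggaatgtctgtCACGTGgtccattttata
Atp6v1a, chr16:44139373-44139402, minus strand: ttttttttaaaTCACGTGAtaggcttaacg
Lamp1, chr8:13159104-13159133, plus strand: tggtccagcgccCACGTGatgccgactggc
The core of the motif began 98 bases before the start site in *Ctsd*, 236 in *Ctsl*, 49 in *Lgmn*, 131 in *Atp6v1a* and 45 in *Lamp1*, and the *Lamp1* window held 4 such cores. In the same build the *Ctsd* gene lies at chr7:142375910-142387827, *Ctsl* at chr13:64361890-64370772, *Lgmn* at chr12:102394082-102439728, *Atp6v1a* at chr16:44085402-44139702 and *Lamp1* at chr8:13159161-13175338. The printed stretch of *Ctsd* and *Lamp1* is thus upstream of the gene. That of *Ctsl*, *Lgmn* and *Atp6v1a* lies inside the bounds of the gene, which reach past the start site used here.

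The files hold reads per gene and cell. After filters, 1000, 835, 1615, 919 and 894 cells were kept, with medians of 75442 to 117788 reads per cell. *Ptprc*, the gene of CD45, was read in 96.6% to 98.5% of the kept cells of a group. *Cd3e*, the targeted gene, was read in 42, 12, 42, 17 and 30 of the 292, 200, 348, 160 and 175 cells outside the gated classes. The counts were lowest in both CD3e-/- groups but not 0 there. These groups also had fewer such cells than the WT group with the same surgery. Which part of the gene is deleted was not given in the sources used here, so these reads alone do not check the labels. *Cd3g* was read in 48, 3, 41, 0 and 28 such cells, low in both CD3e-/- groups. *Cd8a* or *Cd8b1* was read in 8, 0, 13, 1 and 7 such cells, which is 0.805% of the kept cells of WT TAC (0.429% to 1.37%, Clopper-Pearson interval of 95%) and 0.783% after CD8 antibody (0.315% to 1.61%), so a loss of these cells was not detectable there and the group is named by its label. Levels are given as CPM, the reads of a gene relative to the summed reads of the cells concerned. They are not divided by gene length and were compared for the same gene only. Monocytes and macrophages were gated on *Csf1r* and *Lyz2* (620, 517, 1182, 687 and 653 cells) and parted by the genes *Gpnmb*, *Lyve1*, *Cd209a*, *Ly6c2* and *Ccr2* into classes named after the gate, with 149 *Gpnmb*+, 192 *Lyve1*+, 184 *Cd209a*+, 523 *Ly6c2*+, 1432 *Ccr2*+ and 1178 *Ccr2*-low cells, and 429 B cells gated on *Cd79a*. GPNMB is itself a glycoprotein of the lysosome and related organelles, it is not among the 39 genes, and it marks macrophages that take up lipid and debris. *Lyve1* marks resident macrophages, *Ly6c2* and *Ccr2* monocytes and the cells that derive from them, and *Cd209a* a type of dendritic cell. In *Cd209a*+ cells *Cd209a*, *Clec10a*, *Flt3*, *Ciita* and *H2-DMb2* summed to 1674 to 2711 CPM, against at most 362 CPM in the other classes of this gate. This sum includes *Cd209a* itself, so part of the difference was fixed by the gate. The list of monocyte and macrophage markers summed to 6816 to 8839 CPM in *Cd209a*+ cells, against 12837 CPM or more. By the gate *Cd209a*+ cells are still counted as monocytes and macrophages in all that follows.

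*Gpnmb*+ cells had the highest load of lysosomal transcripts. The 39 genes took 4.71%, 5.19%, 5.88%, 5.64% and 5.59% of the reads of *Gpnmb*+ cells, where the value of CD3e-/- sham rests on 4 cells. In *Ccr2*+ cells they took 1.96%, 2.09%, 2.51%, 2.58% and 2.49%, and in *Lyve1*+ cells 2.37%, 2.27%, 2.83%, 3.10% and 2.62%. *Cd209a*+ cells had the lowest shares of the classes gated as monocytes and macrophages, 1.54%, 1.63%, 1.85%, 2.04% and 1.84%, and B cells stood at 0.549% over all groups. The *Gpnmb*+ range did not overlap that of any other class. Among the classes of monocytes and macrophages, taken where a group had 10 or more cells, 35 of the 39 genes had their highest median in *Gpnmb*+ cells, and for 16 of these the lowest group of *Gpnmb*+ cells was above every group of the other classes. Of the 10061 genes with 20 CPM or more in such a sum, 14.3% had their highest median there and 1.04% stood apart in this way. The exceptions were *Ctsc*, *Atp6v0d1* and *Man2b1*, highest in *Lyve1*+ cells, and *Laptm5*, highest in *Ccr2*-low cells. *Cd209a*+ cells had the lowest median for 26 of the 39 genes and for 25.1% of the 10061. *Gpnmb*+ cells also had more reads per cell than *Ccr2*+ cells, with group medians of 160459 to 192768 against 95245 to 120699. In *Cd209a*+ cells these medians were 127151 to 250062. The part of depth in the shares was not tested.

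**Figure D1:**
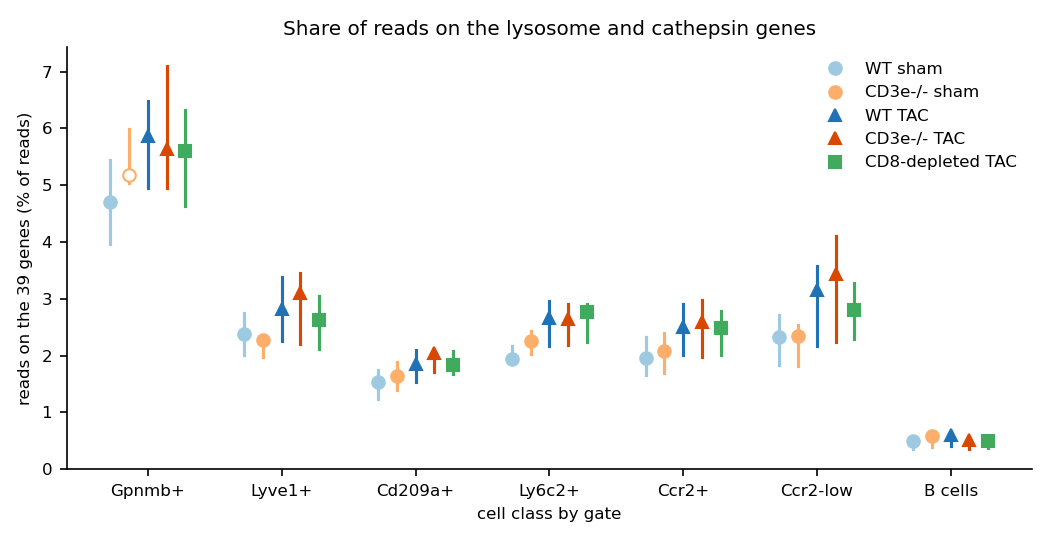
Percent of the reads of a cell class that fell on the 39 lysosome and cathepsin genes, by class on the x axis and hashtag group by colour. Points are the share of summed reads, lines the quartiles over cells, and the open point rests on 4 cells. All *Gpnmb*+ points lie between 4.71% and 5.88%, above those of every other class, and B cells lie lowest.

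Differences between classes were tested over the hashtag groups, on reads summed per group and class where 10 or more cells were present, with the group as a block (edgeR quasi-likelihood test, Benjamini-Hochberg over 16181 genes). *Gpnmb*+ cells of CD3e-/- sham were too few and are not in this fit. The p-values rest on a single fit of all classes, B cells included, over these groups of 1 library. The error of a contrast thus draws on the scatter of a gene in every class, not only in those compared. The groups differ in genotype and treatment and are not replicates of a condition. Of the 39 genes, 25 were higher in *Gpnmb*+ than in *Ccr2*+ cells and 0 were lower, where 1.63% of all genes tested were higher and 1.27% lower. The median of the 39 log2 differences was 1.14, and that of all genes was -0.10. A further 14 genes did not pass, and DESeq2 called 33 higher and 0 lower, where it called 2.84% of all genes higher and 3.11% lower.

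Among the proteases, cathepsin D (*Ctsd*), an aspartic protease that starts protein breakdown in the lysosome, was higher in *Gpnmb*+ than in *Ccr2*+ cells. Its level in *Gpnmb*+ cells was 5197, 6541, 8757, 8647 and 7582 CPM. In *Ccr2*+ cells it was 378, 633, 871, 928 and 728 CPM. Every group of *Gpnmb*+ cells was above every group of *Ccr2*+ cells, and the log2 difference was 3.57 (SE 0.40, adjusted p = 2.15e-06). Cathepsin B (*Ctsb*), a cysteine protease, had 6533, 9387, 11478, 10789.7 and 9731 CPM in *Gpnmb*+ cells and 1352, 1459, 2381, 2374 and 2322 CPM in *Ccr2*+ cells. The groups did not overlap, and the log2 difference was 2.39 (SE 0.17, adjusted p = 1.17e-09). Cathepsin L (*Ctsl*) was higher by 2.21 on the log2 scale (SE 0.40, adjusted p = 0.00117), and its 1132 CPM in *Gpnmb*+ cells of CD3e-/- TAC came in part from 1 cell with 38.7% of those reads. Cathepsin S (*Ctss*), which trims the invariant chain of MHC class II, was higher by 1.28 (SE 0.14), *Lgmn* by 1.36 (SE 0.21), *Ctsa* by 1.09 (SE 0.15) and *Ctsz* by 0.92 (SE 0.15), all past the test.

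Cathepsin K (*Ctsk*), the collagen-cutting protease of osteoclasts, was read in few cells. In *Gpnmb*+ cells it had 207, 106, 14.8, 9.36 and 32.2 CPM, from 5 of 12, 2 of 4, 6 of 68, 3 of 34 and 5 of 31 cells. In *Ccr2*+ cells it had 0, 1.68, 1.03, 0.880 and 0.876 CPM. The sham value of WT was high through 1 cell that held 66.1% of its reads, but all groups of *Gpnmb*+ cells lay above all groups of *Ccr2*+ cells (adjusted p = 0.00823). *Ctsk* had no read in *Cd209a*+ cells and in B cells of any group. Cathepsin C (*Ctsc*), which activates serine proteases of granules, went the other way: its 838, 515, 1027, 922 and 1076 CPM in *Gpnmb*+ cells lay below the 2550.3, 2088, 2283, 1684 and 2186 CPM of *Lyve1*+ cells in every group. Its log2 difference of *Gpnmb*+ to *Lyve1*+ cells was -1.08 (SE 0.18, adjusted p = 0.00027), the only one of the 39 below 0 and past the test in that contrast, and that to *Ccr2*+ cells was -0.31 (adjusted p = 0.454).

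The proton pump and its neighbours showed a similar split. *Atp6v0d2*, the d2 subunit known from osteoclasts and macrophages, had 224, 82.7, 188, 226 and 181 CPM in *Gpnmb*+ cells. These reads came from 5 of 12, 2 of 4, 25 of 68, 13 of 34 and 9 of 31 cells, and 1 cell held 18.7% to 76.9% of them in a group. *Atp6v0d2* had at most 7.41 CPM in *Ccr2*+ cells and 60.1 CPM in *Ccr2*-low cells, and no read in *Cd209a*+ cells or B cells. The difference to *Ccr2*+ cells passed the test (log2 6.16, SE 1.26, adjusted p = 0.00821) and missed it without CD3e-/- TAC (adjusted p = 0.052). The catalytic subunit *Atp6v1a* had 483, 613, 599, 558 and 547 CPM in *Gpnmb*+ cells and 103 to 186 CPM in *Ccr2*+ cells (log2 1.99, SE 0.16, adjusted p = 4.01e-09), and *Atp6v0c* and *Atp6v1b2* were higher by 1.14 and 1.07. *Atp6v0d1*, the broadly used form of the d subunit, did not pass (log2 0.75, SE 0.25, adjusted p = 0.109), nor did *Atp6v1h* (0.85) and *Atp6ap1* (0.57).

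Of the membrane proteins, the tetraspanin *Cd63* had 954, 1001, 1135, 1075 and 1025 CPM in *Gpnmb*+ cells and 66.7 to 175 CPM in *Ccr2*+ cells (log2 3.09, SE 0.60, adjusted p = 0.00287). *Lamp1* had 1469.9, 998, 1461, 1668 and 1518 CPM against 590.4 to 719.7 CPM (log2 1.34, SE 0.13, adjusted p = 1.77e-07), and *Cd68*, the macrophage sialomucin, was higher by 1.41 (SE 0.23, adjusted p = 0.00047). These groups did not overlap either. *Scarb2*, the receptor that brings glucocerebrosidase to the lysosome, was higher by 0.60 (adjusted p = 0.0353) but missed the test under most alternatives, *Lamp2* did not pass (0.91, adjusted p = 0.0721), and *Laptm5*, a lysosomal protein of blood cells, was at -0.04 (adjusted p = 0.905) with 1534 to 2018 CPM in *Gpnmb*+ and 1997 to 2219.7 CPM in *Ccr2*+ cells, which overlapped. *Mcoln1*, the calcium channel of the lysosome, was at 1.46 with a wide error (SE 0.49, adjusted p = 0.113).

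Among the enzymes of the lumen, the log2 differences of *Gpnmb*+ to *Ccr2*+ cells that passed were 2.38 for *Gla* (alpha-galactosidase A), 1.49 for *Tpp1* (a peptidase), 1.26 for *Hexa* (a hexosaminidase subunit) and 0.62 for *Gusb* (beta-glucuronidase), the last of which missed the test under most alternatives. The cholesterol carriers *Npc1* and *Npc2* were higher by 1.62 and 1.00. Prosaposin (*Psap*), the precursor of the activators of sphingolipid breakdown, was higher by 1.05 and progranulin (*Grn*) by 1.42. *Acp5*, the tartrate-resistant acid phosphatase of osteoclasts and activated macrophages, had 304, 60.4, 178, 84.6 and 184 CPM in *Gpnmb*+ cells and 11.4 to 46.7 CPM in *Ccr2*+ cells (log2 2.72, SE 0.65, adjusted p = 0.016). That call was lost in turn without WT sham (0.060), WT TAC (0.095) or the group labelled CD8-depleted TAC (0.079). *Gaa*, *Man2b1*, *Asah1*, *Ppt1*, *Neu1* and the aminopeptidase cathepsin H (*Ctsh*, log2 0.45, adjusted p = 0.0515) did not pass, and *Tfeb* itself, with 66.4, 58.3, 55.3, 32.4 and 41.3 CPM in *Gpnmb*+ and 37.9 to 56.3 CPM in *Ccr2*+ cells, overlapped between the classes (log2 0.22, SE 0.29, adjusted p = 0.82).

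Set by the promoter motif, 7 of the 10 genes with CACGTG were higher in *Gpnmb*+ than in *Ccr2*+ cells, with a median of 1.41. So were 14 of the 22 without it (median 0.96) and 4 of the 7 without a promoter (median 1.07). Of all genes tested 1.63% were higher, and the share among other genes with the motif was not counted. The counts and medians are a description and were not tested against each other.

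**Figure D2:**
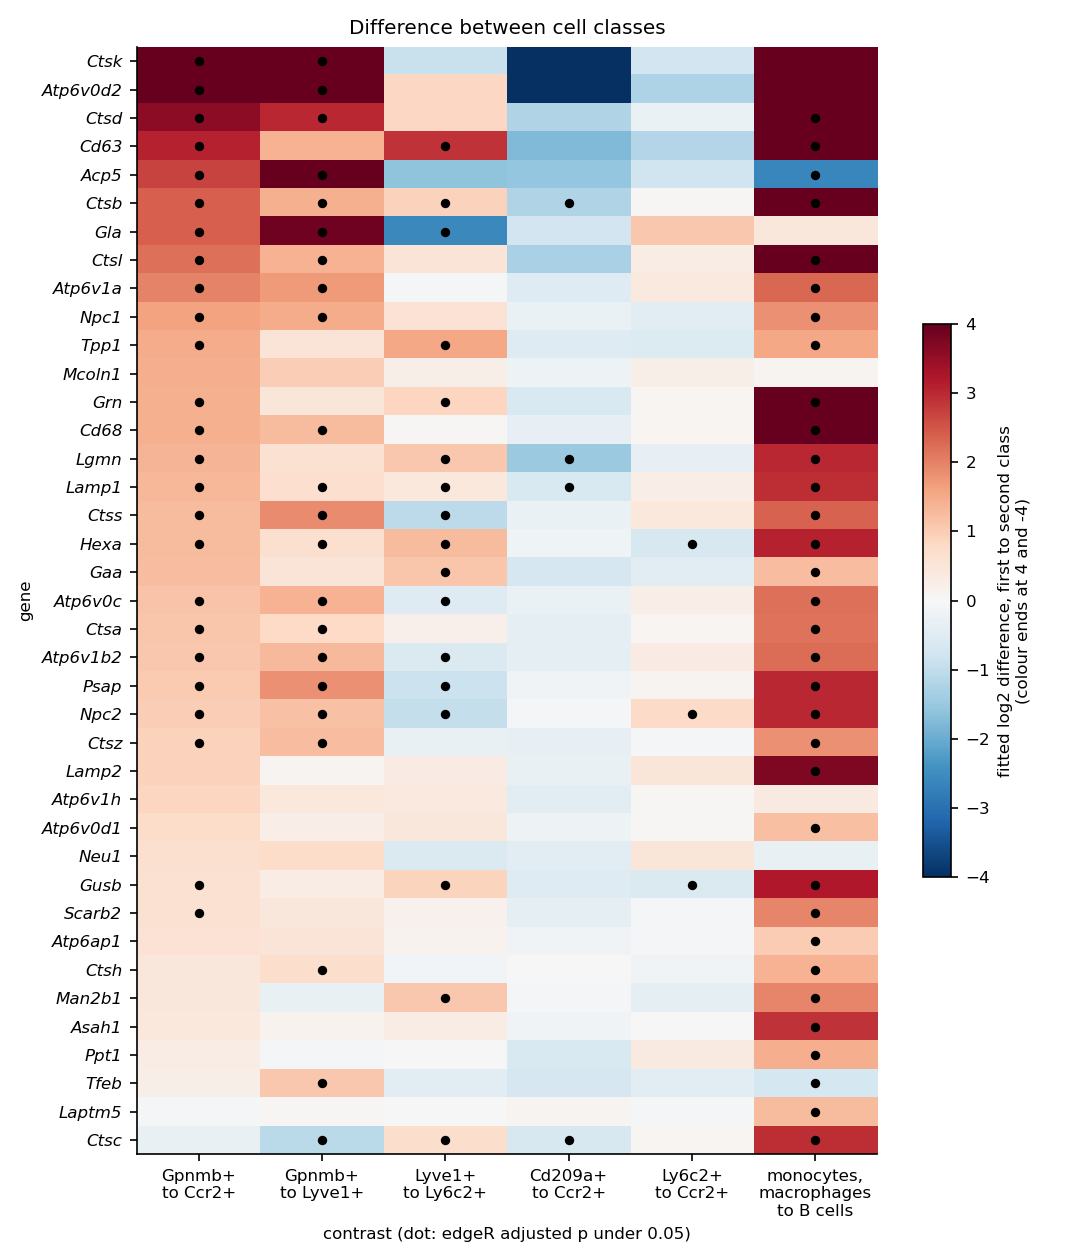
Fitted log2 difference between cell classes for each of the 39 genes (rows) in 6 contrasts (columns). Red is higher in the first class, blue higher in the second, and a dot marks an adjusted p under 0.05. The first column has 25 dots, all in red, and the *Cd209a*+ column 4, all in blue; *Ctsk* and *Atp6v0d2* had no read in *Cd209a*+ cells and B cells, so their colour there is no bound.

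*Gpnmb*+ cells were also set against *Lyve1*+ cells. Here 21 of the 39 genes were higher and 1 lower (5.45% and 3.32% of all genes), with a median of 0.81 where that of all genes was 0.01. The 6 with the largest differences were *Ctsk*, *Atp6v0d2*, *Acp5* (5.13, SE 0.72, adjusted p = 2.9e-05), *Gla* (3.88, SE 0.50, adjusted p = 9.9e-06), *Ctsd* (3.01, SE 0.40, adjusted p = 1.2e-05) and *Ctss* (1.88, SE 0.14, adjusted p = 5.7e-10). *Ctsk* was at 0 in *Lyve1*+ cells of all groups but CD3e-/- sham (8.29 CPM), and *Atp6v0d2* in 3 groups. *Ctsd* in *Lyve1*+ cells was 472, 604, 1161, 3131 and 882 CPM, high in CD3e-/- TAC with 14 cells, and still below every *Gpnmb*+ value. *Cd63*, *Lgmn* and *Grn* had 357 to 401, 917 to 1533 and 787 to 1312 CPM in *Lyve1*+ cells, where the ranges of *Cd63* and *Lgmn* lay below those of *Gpnmb*+ cells and that of *Grn* did so only without the 4 cells of CD3e-/- sham (1182 CPM), but they did not pass (log2 1.39, 0.61 and 0.49; adjusted p = 0.15, 0.0689 and 0.207). *Tfeb* was higher by 1.07 (adjusted p = 0.02), a call that was lost in 5 of the alternatives.

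*Lyve1*+ and *Ly6c2*+ cells had different members of the list on their side. Of the 39 genes 11 were higher in *Lyve1*+ cells and 6 lower, where 8.53% and 10.8% of all genes were. Higher were first of all *Cd63* (2.88, SE 0.60, adjusted p = 0.00077), with 357 to 401 CPM in *Lyve1*+ and 20.8 to 121 CPM in *Ly6c2*+ cells, then *Tpp1* (1.55), *Hexa* (1.26), *Gaa* (1.10), *Lgmn* (1.09) and *Man2b1* (1.08). Lower in *Lyve1*+ cells were *Gla* (-2.57), *Ctss* (-1.04), *Npc2* (-0.95), *Psap* (-0.87), *Atp6v1b2* (-0.57) and *Atp6v0c* (-0.52). *Ctss* had 1414, 1751, 1852, 2685 and 1559 CPM in *Lyve1*+ and 2423, 2626, 4125, 4817 and 4726 CPM in *Ly6c2*+ cells, and the highest *Lyve1*+ group lay within the *Ly6c2*+ range. In WT sham 1 of the 23 *Ly6c2*+ cells held all reads of the fibroblast markers (2032 CPM over the class, at most 4.31 CPM in the other groups). Without WT sham the counts were 12 higher and 6 lower, where the shares of all genes are not reported here.

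*Cd209a*+ cells were lower than *Ccr2*+ cells in 4 of the 39 genes and higher in 0, where 1.06% of all genes were lower and 0.686% higher. The 4 were *Lgmn* (-1.48, SE 0.20, adjusted p = 8.6e-05), *Ctsb* (-1.19, SE 0.16, adjusted p = 7.6e-05), *Ctsc* (-0.66, SE 0.17, adjusted p = 0.038) and *Lamp1* (-0.62, SE 0.12, adjusted p = 0.00564). *Lgmn* had 164, 147, 349, 343 and 307 CPM in *Cd209a*+ and 428, 483, 926, 1052 and 896 CPM in *Ccr2*+ cells, which did not overlap. *Ctsd*, *Ctsl* and *Cd63* had log2 values of -1.22, -1.28 and -1.77 that did not pass (adjusted p = 0.097, 0.0882 and 0.133), and in each the 11 cells of CD3e-/- TAC were far above the other *Cd209a*+ groups, for *Ctsd* 1195 CPM against 125 to 235 CPM. Without that group 7 genes were lower, where the share of all genes is not reported here. *Ly6c2*+ and *Ccr2*+ cells differed in 3 genes, *Npc2* higher in *Ly6c2*+ cells (0.77, adjusted p = 6.9e-05) and *Hexa* (-0.65, adjusted p = 0.01) and *Gusb* (-0.57, adjusted p = 0.024) lower, where 1.73% and 1.82% of all genes were. These few calls are not far from those shares, and the median of the 39 genes was 0.03 (-0.03 over all genes). The count of lower genes was 0 without WT sham, without WT TAC or without the group labelled CD8-depleted TAC.

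Against B cells, the mean of the *Gpnmb*+, *Lyve1*+, *Cd209a*+, *Ly6c2*+ and *Ccr2*+ classes was higher in 31 of the 39 genes and lower in 2, where 23.3% and 19.8% of all genes were, with a median of 2.22. The largest were *Cd63* (6.37), *Ctsb* (4.92), *Cd68* (4.55), *Grn* (4.52), *Ctsd* (4.47) and *Ctsl* (4.01). The 2 lower genes were *Tfeb* (-0.70, adjusted p = 0.0066), with 44.6 to 85.4 CPM in B cells, and *Acp5* (-2.60, SE 0.40, adjusted p = 4.6e-06). *Acp5* was as high in B cells (128, 143, 147, 147 and 165 CPM) as in several groups of *Gpnmb*+ cells and above every group of the other classes. *Neu1*, *Gla*, *Mcoln1* and *Atp6v1h* did not pass in this contrast, with log2 values between -0.31 and 0.44.

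**Figure D3:**
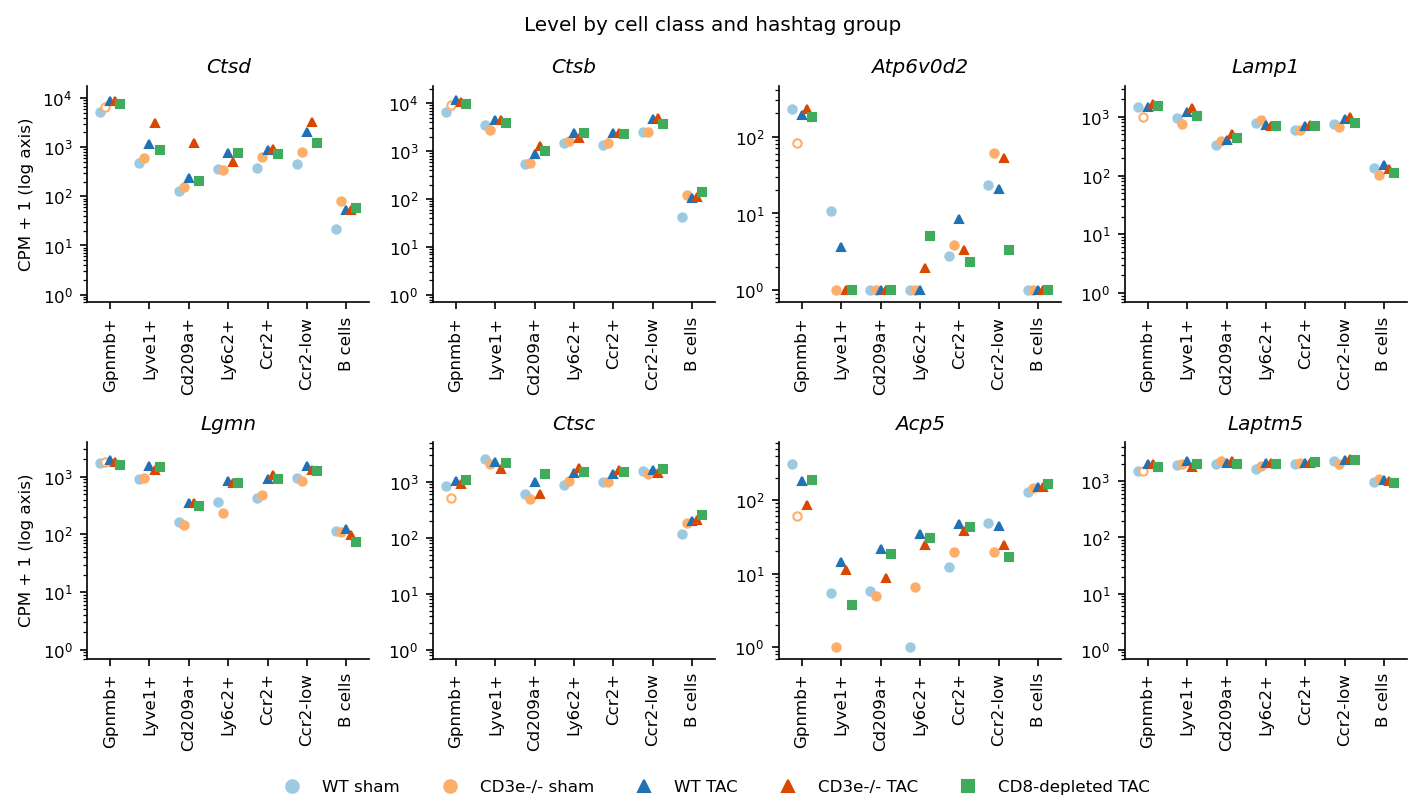
Level of 8 of the genes in each cell class (x axis) and hashtag group (colour and shape), as CPM + 1 on a log axis; open points rest on 4 cells. *Ctsd*, *Ctsb*, *Atp6v0d2* and *Lgmn* stand highest in *Gpnmb*+ cells, *Ctsc* in *Lyve1*+ cells, *Acp5* stands in both *Gpnmb*+ cells and B cells, and *Laptm5* lies between 1534 and 2479 CPM in all monocytes and macrophages.

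After TAC, the monocytes and macrophages of both genotypes had higher levels of *Ctsb*, *Ctsd*, *Ctsl* and *Ctss*, which are 4 of the 9 cathepsins, and of *Lgmn*. A gene counted as past the fold when its ratio, with 10 CPM added to both sides, was 1.5 or more, and only genes with 20 CPM in a group entered. In WT TAC against WT sham, 6 of the 38 lysosome and cathepsin genes that entered were higher and 0 lower, where 3.34% of all genes were higher and 2.58% lower, and the median log2 ratio was 0.28 (0.03 over all genes). In CD3e-/- TAC against CD3e-/- sham, 11 of 38 were higher and 0 lower (5.96% and 3.67% of all genes), with a median of 0.38 (0.06 over all genes). *Ctsb*, *Ctsd*, *Ctsl*, *Ctss* and *Lgmn* were past the fold in both. A ratio above 1 in both was found for 32 of the 38 genes and for 42.2% of the 6699 genes that entered in both, and *Ctsk*, at 9.02, 7.74, 2.05, 1.89 and 3.09 CPM, had a ratio below 1 in both.

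*Ctsd* had 576 CPM in WT sham (570.4 to 583, exact Poisson interval of 95% for counting error only, also below), 672 in CD3e-/- sham (666 to 679), 1725 in WT TAC (1719 to 1732), 1995 in CD3e-/- TAC (1987 to 2004) and 1272 after CD8 antibody (1264 to 1279.8). Both sham groups were thus below all TAC groups, with log2 ratios of 1.57 in WT and 1.56 in CD3e-/- mice. *Ctsl* had 91.3, 82.4, 186, 276 and 153 CPM (log2 0.95 and 1.63), and *Ctsb* 2092, 1798, 3585, 3512 and 3179 CPM (0.77 and 0.96). *Ctss* had 2117, 2267, 3505, 4217 and 3488 CPM (0.72 and 0.89) and *Lgmn* 685, 555, 1103, 1089 and 1000.2 CPM (0.68 and 0.96). In each of these 5 genes no sham group reached a TAC group. In WT mice *Npc1* was also past the fold, with 62.6, 67.6, 99.0, 84.3 and 85.6 CPM (0.59), barely over the limit. In CD3e-/- mice so were *Cd63* (263, 155, 304, 295 and 264 CPM, log2 0.89), *Grn* (583, 488, 780.4, 877 and 824 CPM, 0.83), *Ppt1* (133, 123, 184, 221 and 197 CPM, 0.79), *Lamp2* (634, 517, 765, 904 and 807 CPM, 0.79), *Acp5* (34.4, 15.1, 52.8, 33.1 and 39.2 CPM, 0.78) and *Atp6v1a* (159, 150.1, 214, 237 and 210.3 CPM, 0.63). Whether the change after TAC differed between the genotypes was not tested, as each group was 1 sample.

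Other genes moved less. *Ctsa* had 550.0, 526, 643, 684 and 649 CPM, *Ctsc* 1307, 1078, 1419, 1531 and 1545, *Ctsh* 697, 656, 871, 826 and 799.8, and *Ctsz* 561, 651, 781, 786 and 747, with both sham groups lowest in each. *Cd68* (549, 610.1, 693, 669 and 683 CPM), *Lamp1* (706, 616, 803, 867 and 778 CPM) and, by a small margin, *Laptm5* (2062, 2080.4, 2185, 2178 and 2189 CPM) also had both sham groups lowest. *Psap* (4080.3, 4578, 4554, 4047 and 4263 CPM) and *Tfeb* (38.1, 43.8, 38.7, 36.7 and 42.3 CPM) did not part TAC from sham. *Atp6v0d2* had 18.6, 19.4, 23.9, 30.03 and 13.7 CPM, and its reads lay to 48.3%, 6.41%, 68.9%, 58.9% and 85.4% in *Gpnmb*+ cells.

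**Figure D4:**
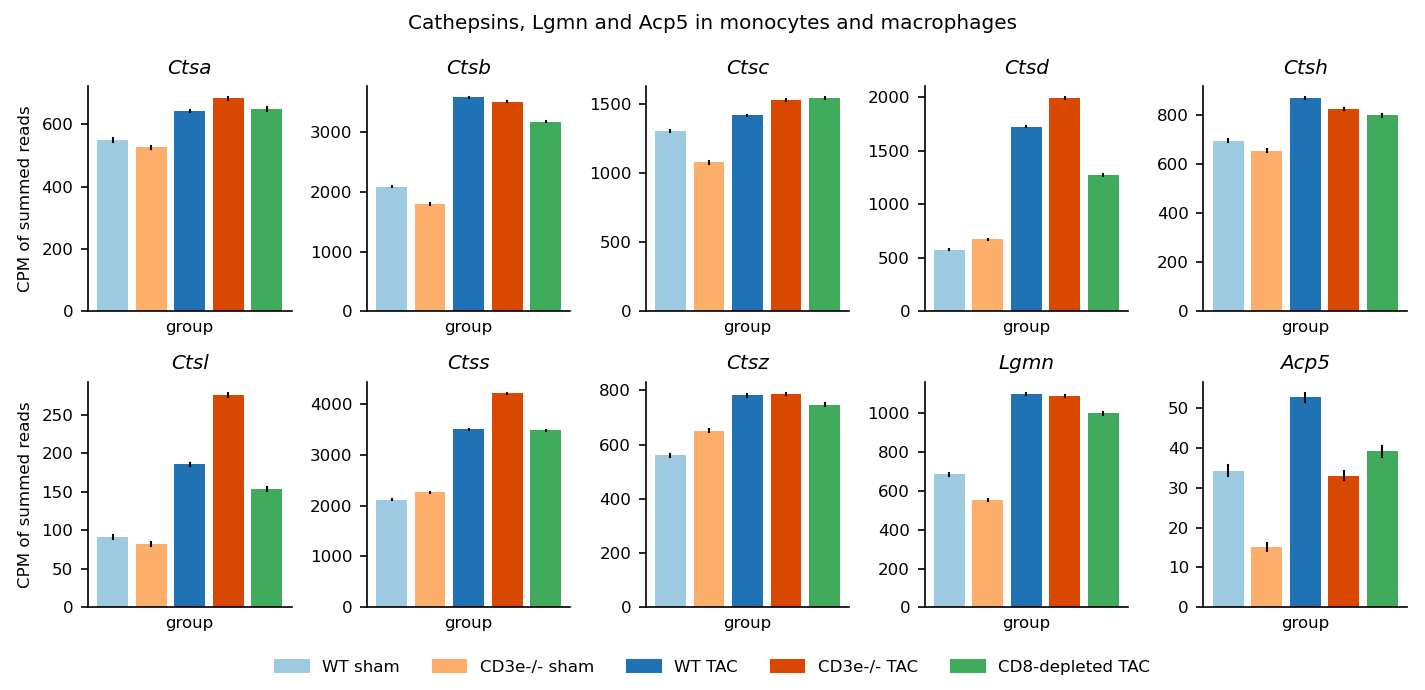
Level of 8 cathepsins, *Lgmn* and *Acp5* in the monocytes and macrophages of the 5 hashtag groups (bars, CPM of summed reads, axes from 0), with exact Poisson intervals as lines. *Ctsd* stands at 576 and 672 CPM in the sham groups and at 1272 to 1995 CPM in the TAC groups, and the sham bars are the lowest pair in all panels but *Acp5*.

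**Figure D5:**
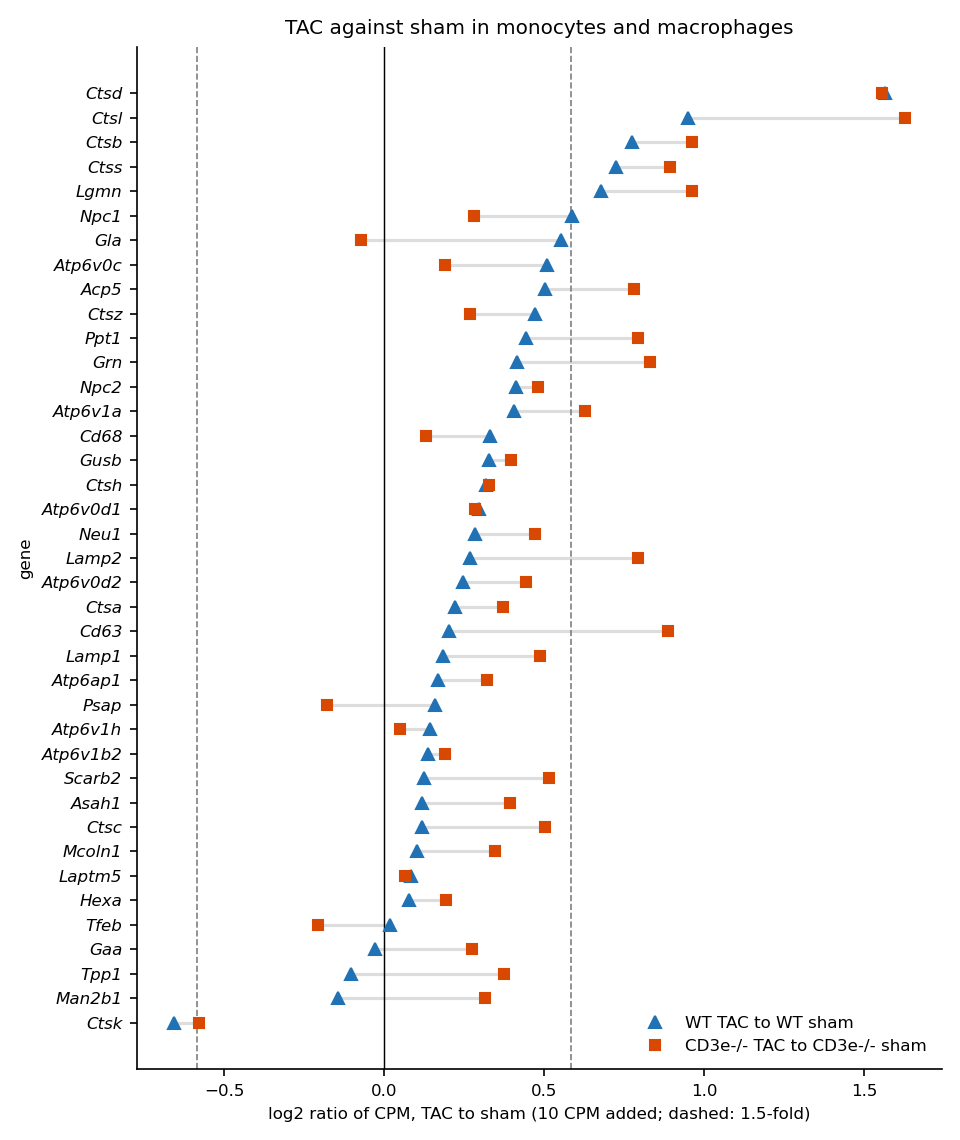
Log2 ratio of TAC to sham for each of the 39 genes in monocytes and macrophages of WT (triangles) and CD3e-/- mice (squares), with 10 CPM added; dashed lines mark 1.5-fold. *Ctsd* stands at 1.57 and 1.56, and *Ctsk*, at 9.02 CPM or less, is the only gene left of 0 in both.

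The mix of cells also differed in value between sham and TAC, which was not tested, as each group was 1 sample. The intervals below cover the counting of cells only and not the spread between mice. *Gpnmb*+ cells were 1.94% (1.00% to 3.36%, Clopper-Pearson interval of 95%), 0.774% (0.211% to 1.97%), 5.75% (4.49% to 7.24%), 4.95% (3.45% to 6.85%) and 4.75% (3.25% to 6.67%) of the monocytes and macrophages, and held 8.59%, 3.63%, 17.6%, 14.6% and 12.9% of the reads of the 39 genes. Without them the 39 genes took 2.09%, 2.11%, 2.63%, 2.80% and 2.61% of the reads of monocytes and macrophages, against 2.19%, 2.16%, 2.91%, 3.02% and 2.80% with them. *Ctsb* and *Npc1* then fell within the limit of the fold in WT (log2 0.57 and 0.50) and *Atp6v1a* in CD3e-/- mice (0.53). In WT another of the 39 genes, not named here, came past the limit. *Ly6c2*+ cells were 3.71% (2.37% to 5.51%), 6.58% (4.597% to 9.07%), 13.5% (11.6% to 15.5%), 24.3% (21.1% to 27.7%) and 21.4% (18.4% to 24.8%) of all monocytes and macrophages, with the sham groups lowest. *Ccr2*+ cells were 29.4% (25.8% to 33.1%), 37.1% (33.0% to 41.5%), 45.7% (42.8% to 48.6%), 42.5% (38.8% to 46.3%) and 34.6% (31.0% to 38.4%). *Ccr2*-low cells were 46.8% (42.8% to 50.8%), 39.5% (35.2% to 43.8%), 26.3% (23.8% to 28.9%), 24.6% (21.4% to 28.0%) and 31.2% (27.7% to 35.0%), with the sham groups highest. *Lyve1*+ cells were 11.1% (8.76% to 13.9%), 5.80% (3.95% to 8.18%), 4.23% (3.16% to 5.54%), 2.04% (1.12% to 3.40%) and 4.44% (2.99% to 6.32%), and *Cd209a*+ cells, the class with the lowest shares of lysosomal reads, were 7.10% (5.20% to 9.41%), 10.3% (7.77% to 13.2%), 4.48% (3.38% to 5.82%), 1.60% (0.802% to 2.85%) and 3.52% (2.25% to 5.24%). With the classes weighted equally, *Ctss* (log2 0.53) and *Npc1* (0.43) fell within the limit in WT mice and *Cd63* (0.55), *Atp6v1a* (0.51) and *Ppt1* (0.58) in CD3e-/- mice, and *Ctss* in WT mice also did by the mean over cells (0.58). Within *Ccr2*+ cells alone 7 genes were higher and 0 lower in WT (5.32% and 2.95% of all genes) and 12 higher and 0 lower in CD3e-/- mice (7.32% and 3.65%), and within *Ccr2*-low cells 8 and 0 (5.61% and 3.65%) and 11 and 0 (9.92% and 6.61%). In the smaller classes more of all genes were past the fold. In *Ly6c2*+ cells 14 of the lysosome and cathepsin genes were higher and 3 lower in WT (20.1% and 15.5% of all genes), and 12 and 2 in CD3e-/- mice (16.3% and 12.5%). In *Lyve1*+ cells the counts were 7 and 1 (14.5% and 15.5%) and 14 and 4 (27.4% and 22.6%), and in *Cd209a*+ cells 10 and 0 (12.8% and 10.3%) and 17 and 2 (25.1% and 17.3%). In *Gpnmb*+ cells of WT mice 6 were higher and 2 lower (22.7% and 18.2%), a share of higher genes below that of all genes. *Ctsd* was above its sham level in all 6 classes of WT mice, by 0.75 to 2.13 on the log2 scale, and in all 5 classes with enough cells of CD3e-/- mice, by 0.50 to 2.86, and *Ctsl* likewise by 0.75 to 1.51 and by 1.06 to 2.25. *Acp5* went from 11.4 to 46.7 CPM in *Ccr2*+ cells of WT mice and from 304 to 178 CPM in *Gpnmb*+ cells.

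Other genes moved with surgery in the monocytes and macrophages as well. The 6 genes that rise when tissue is digested (*Fos*, *Jun* and others) summed to 10817, 9111, 5279, 4450 and 5313 CPM with none at 0, and the 4 fibroblast markers to 103, 50.2, 5.58, 4.80 and 2.02 CPM with *Dcn* at 0 in the TAC groups. The 4 neutrophil markers summed to 46.3, 116, 129, 135 and 230.1 CPM with *S100a8* and *S100a9* at 0 in WT sham. Their part in the differences between sham and TAC was not tested.

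The CD3e-/- genotype was set against WT within sham and within TAC. In CD3e-/- sham against WT sham, *Gla* was higher (49.2 against 29.2 CPM, log2 0.59) and *Cd63* (-0.73) and *Acp5* (-0.82) were lower, where 1.2% of all genes were higher and 1.71% lower. The 3 calls were lost when the classes were weighted equally, where the log2 values were 0.40, -0.28 and -0.30. In CD3e-/- TAC against WT TAC 0 of 38 genes were past the fold in either direction (1.11% and 0.623% of all genes), and the widest log2 ratios were 0.55 for *Ctsl* and -0.54 for *Acp5*. With CD8-depleted TAC set against WT TAC, 0 of 38 were past it as well (0.665% and 0.26% of all genes), with *Atp6v0d2* at -0.52 and *Ctsd* at -0.44. These comparisons share WT TAC, and with 1 sample per group no test of 0 could be made.

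A second list of 66 lysosomal genes outside the 39, written from general knowledge, was read in the same way. In *Gpnmb*+ against *Ccr2*+ cells 22 were higher and 1 lower (1.63% and 1.27% of all genes), with a median of 0.82. The largest that passed were *Rragd* (4.19, adjusted p = 0.003), a GTPase that brings mTORC1 to the lysosome, and *Tfec* (2.52, adjusted p = 0.03), a relative of TFEB. *Igf2r* (2.79) and the lowest, *Ctse* (-2.53), *Arsb* (-0.98) and *Atp6v0a2* (-0.60), did not pass. In *Gpnmb*+ against *Lyve1*+ cells 20 were higher and 1 lower (5.45% and 3.32% of all genes). The higher ones were led by *Igf2r* (5.78, adjusted p = 0.0075) and *Rragd* (3.96), and the lower one was the arylsulfatase *Arsb* (-2.87, adjusted p = 0.00087). In *Lyve1*+ against *Ly6c2*+ cells 22 were higher and 9 lower (8.53% and 10.8% of all genes). The higher ones were led by *Ctsf* (5.22), *Arsb* (3.33) and *Dpp7* (2.21), and among the lower ones were *Ctse* (-8.23, adjusted p = 0.0023) and *Sort1* (-3.37). *Cd209a*+ cells were higher than *Ccr2*+ cells in 2 genes and lower in 5 (0.686% and 1.06% of all genes). Among the higher was *Gm2a* (0.82), and of the lower *Slc11a1*, an ion transporter of phagosomes, had -1.87. *Ly6c2*+ cells were higher than *Ccr2*+ cells in 1 of the 66 genes, *Tfec* (2.17, adjusted p = 0.039), and lower in 2. These counts are near the shares of all genes (1.73% and 1.82%). Against B cells *Tfec* (5.99), *Sort1* (4.53) and *Slc11a1* (4.25) led 50 higher genes, and *Ctse* (-2.56) and *Ctso* (-1.02) were among 3 lower ones (23.3% and 19.8% of all genes). After TAC this list moved less. In WT mice 0 of 57 genes were higher and 2 lower (3.34% and 2.58% of all genes), *Arsb* (80.0 to 34.8 CPM, log2 -1.01) and *Ctsf* (39.1 to 18.5 CPM, -0.78). In CD3e-/- mice 2 of 57 were higher and 2 lower (5.96% and 3.67% of all genes), among them *Pla2g15* (0.64), *Igf2r* (0.63) and *Arsb* (-0.77). These counts did not stand out from the shares of all genes. In the other 3 comparisons 0 were past the fold, where 0.26% to 1.71% of all genes were in a direction, and the lowest log2 value was -0.53 (*Ctsf*, CD3e-/- sham to WT sham).

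Of the 39 genes, 12 overlap another gene in GRCm38.p6, among them *Ctsa*, *Ctsb*, *Ctsz*, *Npc1* and *Ppt1*. How strand was used in counting was not given in the sources used here, so reads of such neighbours may be shared. In pooled cells, fewer cells with a gene and less RNA per cell cannot be told apart.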

How the data were processed

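CD45+ cells of 5 hashtag groups were read in 1 pooled cDNA library. The authors deposited a matrix of read counts per gene and cell barcode, not normalized, with barcodes kept by an inflection point and distribution-based error correction, which the matrix is named for, and the hashtag in each column name; these are reads, not molecules. The submitters' processing notes name cutadapt 2.10, Bowtie2 2.4.2 and the build GRCm38, and the counting settings were not given in the sources used here. The matrix had 5363 columns and 27809 genes. The condition of each hashtag was read from the notes deposited with it. The 48 columns named as doublet or without a hashtag were left out (40 and 8), and no further doublet caller was run. The columns named as doublet are a smaller share than the deposited notes give, so some doublets may remain.

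A cell was kept (5263 were) if it had at least 500 genes and no more than 0.4 of its reads on mitochondrial genes. Total reads were 91899777 to 208758777 per group. Classes were gated on the CPM of single cells: B cells by *Cd79a* of 500 or more and *Csf1r* under 100; monocytes and macrophages by *Csf1r* of 100, *Lyz2* of 1000 and *Cd79a* under 500; then *Gpnmb* 200, *Lyve1* 200, *Cd209a* 200, *Ly6c2* 500 and *Ccr2* 500, in this order. The 1 cell over both the *Gpnmb* and the *Lyve1* limit stayed apart, and the 1175 other cells were not used beyond the check of the labels. Groups were compared by CPM of summed reads, 10 CPM added, a filter of 20 CPM and a limit of 1.5-fold, with exact Poisson intervals that cover counting error only and are too narrow for reads. Classes were compared by the quasi-likelihood test of edgeR 4.0.16 (limma 3.58.1, R 4.3.3) on 34 sums of 10 or more cells with TMM and filterByExpr, the hashtag group as block and an adjusted p under 0.05; DESeq2 1.42.0 was an alternative. The numbers of the hashtags name groups and pair classes of the same mice. Both steps were tested on simulated data. The other steps ran in Python 3.11.15 with pandas 2.3.3, numpy 2.4.6, scipy 1.17.1 and, for plots, matplotlib 3.10.9.

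The 39 genes, the second list and the tests were chosen with earlier results of these data known. Named were the cathepsins, *Lgmn*, *Acp5*, *Atp6v0d2*, *Cd63*, *Cd68*, *Grn*, *Psap*, *Lamp1*, *Tfeb* and any of the 39 past the fold, the 6 largest differences each way among those past the test in each contrast, and the 3 highest and 3 lowest of the second list, of which some values are not reported here; *Ppt1*, *Laptm5*, *Scarb2* and others were added to account for every gene. The group ratios without *Gpnmb*+ cells were chosen after seeing the data. Other alternatives were gate limits, normalization, tool, filters, weights of cells and classes, the block and each hashtag group left out.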

Additional observations from a re-analysis of the deposited data

How the results depend on the processing

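Of the 20 calls of the group ratios, each under 8 alternatives, 139 values kept their direction and side of the limit and 21 fell within it. Of the 104 calls of the class contrasts, each under 12 alternatives, 1177 values did and 71 lost significance; none of these calls turned. Among the values of the class contrasts that had not passed, 69 changed sign and 60 passed under an alternative. In WT TAC to WT sham 5 to 8 of the 39 genes were higher, and 1 was lower with no filter on low values and 1 with classes weighted equally; in CD3e-/- mice 8 to 12 were higher and 1 lower with equal weights. In CD3e-/- sham to WT sham, 0 were higher with gate limits halved, 0 by the mean over cells, 2 without *Gpnmb*+ cells and 0 with equal weights, and 1, 1 and 0 were lower by the mean over cells, without *Gpnmb*+ cells and with equal weights. In CD3e-/- TAC to WT TAC, 1 was lower with 1 CPM added, 1 without the 5% of cells at each end of reads, and 1 was higher and 1 lower with equal weights. For CD8-depleted TAC to WT TAC, 1 was lower with 1 CPM added and 1 without those 5% of cells. Leaving out each hashtag group in turn left 22 to 24 genes higher in *Gpnmb*+ to *Ccr2*+ cells and 18 to 22 in *Gpnmb*+ to *Lyve1*+ cells. In *Cd209a*+ to *Ccr2*+ cells 9 genes were lower by DESeq2, 8 with sums of 20 cells or more, 7 with gate limits halved, and 3 to 7 with a group left out (7 without CD3e-/- TAC). In *Ly6c2*+ to *Ccr2*+ cells 2 were higher by DESeq2, 1 was lower with gate limits halved and 0 to 2 with a group left out. Without the replicate block, which pairs classes of the same mice, 1 gene was lower in *Ly6c2*+ to *Ccr2*+ cells, 23 were higher in *Gpnmb*+ to *Ccr2*+ and 20 in *Gpnmb*+ to *Lyve1*+ cells. Apart from these constructions, the cause was not tested. The counts of this section stand without the share of all genes called, which moved with the setting. In *Gpnmb*+ to *Ccr2*+ cells edgeR called 1.63% of all genes higher and 1.27% lower, and DESeq2 2.84% and 3.11%. A larger count under an alternative is thus not by itself a result about the 39 genes. Reads are not molecules, and 4 to 34 cells carry several classes of 1 group, which limits their values.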
